A study of Mus musculus with 30 samples.

Results

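The 33 genes described here encode the enzymes and transporters of glycolysis and well-known targets of the hypoxia response, and were taken by name from a deposited table of 48709 mouse genes. They comprise 14 glycolytic enzymes, 2 transporters of glucose and lactate, 2 regulators of glycolytic flux, 3 secreted signals, 3 mitochondrial proteins, 2 oxygen-sensing hydroxylases, 2 procollagen hydroxylases and 5 further targets of hypoxia-inducible factor. All 33 were among the 12946 genes kept for testing, which reached a level of at least 1 CPM (reads scaled to library size, the unit of the deposited table) in at least 3 libraries. Car9 and Adm passed narrowly, reaching 1 CPM in only 6 and 5 libraries. The samples were cultures of C2C12, an immortalised mouse myoblast line that fuses into myotubes in differentiation medium, so every group shares 1 line. Hexavalent chromium, Cr(VI), was given as potassium chromate in the differentiation medium, which held horse serum, at 0, 2 or 5 µM. The 10 groups of 3 libraries were untreated cells at day 0 and cells at 0, 2 and 5 µM on days 1, 2 and 4 of differentiation. Libraries held between 18462092 and 26947109 reads. The labels call the replicates biological without saying that they were separate cultures, so a p-value here measures the spread between these samples only.

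Glycolysis splits glucose into pyruvate in the cytosol, and lactate dehydrogenase can reduce that pyruvate to lactate, which leaves the cell through monocarboxylate transporters. When oxygen is scarce, prolyl hydroxylases of the EGLN family no longer mark the hypoxia-inducible factor subunit HIF-1α for destruction. HIF-1 then binds short hypoxia response elements and raises glycolytic genes together with genes for angiogenesis, mitophagy and collagen modification. Differentiating muscle also exchanges isozymes: the muscle forms of phosphofructokinase (Pfkm), enolase (Eno3) and phosphoglycerate mutase (Pgam2) replace the forms of proliferating cells.

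The DNA core of the hypoxia response element was looked up in RefSeq promoter windows (build GRCm38.p6) of 300 bases, of which 250 lie before and 50 after each annotated start. The letters searched were ACGTG and, for the other strand, CACGT; the sequence CACGTG holds both, overlapping. Windows were found for 32 of the 33 members (Ero1l under its current symbol Ero1a), and 23 of the 32 genes (71.9%) held the core in at least 1 window. Over all genes of the RefSeq table the share was 21.8% (5886 of 27025). Counted by window, the core was in 52.1% of 48 member windows and in 19.6% of all 32851 windows. The members were chosen as known glycolysis and hypoxia response genes, so part of this difference may be built into the list. The RefSeq shares also cover genes not kept for testing here.

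Shown next are stretches before the start of members whose changes with Cr(VI) are described below. The core is in capitals with up to 20 bases on each side, and stretches are cut at the annotated start. The first 4 belong to genes that were higher at 2 µM on day 1 (Pgk1, Ldha, Bnip3 and Ak4), the next 2 to genes that were over 1 log2 unit higher at 5 µM on day 4 (Pgam1 and Ero1l), and the last 5 to genes that were lower at 5 µM on day 4 (Slc16a3, Hk2, Egln3, P4ha2 and Aldoa). Gpi1, Pfkl and Higd1a were also higher at 2 µM on day 1, but Gpi1 and Pfkl held no core and Higd1a none before the start. Ak4 held the core in 1 of 4 windows and Ldha in 1 of 2.
Pgk1: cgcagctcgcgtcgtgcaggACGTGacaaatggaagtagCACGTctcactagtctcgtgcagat
Ldha: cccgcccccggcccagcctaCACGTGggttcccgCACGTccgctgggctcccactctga
Bnip3: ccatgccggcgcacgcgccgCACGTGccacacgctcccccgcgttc
Ak4: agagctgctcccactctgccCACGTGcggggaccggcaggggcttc
Pgam1: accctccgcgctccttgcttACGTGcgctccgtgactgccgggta
Ero1l: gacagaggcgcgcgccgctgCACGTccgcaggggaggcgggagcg
Slc16a3: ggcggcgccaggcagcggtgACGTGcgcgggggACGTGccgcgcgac
Hk2: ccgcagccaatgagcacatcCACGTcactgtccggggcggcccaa
Egln3: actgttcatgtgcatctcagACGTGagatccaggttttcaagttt
P4ha2: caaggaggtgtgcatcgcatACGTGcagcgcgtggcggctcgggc
Aldoa: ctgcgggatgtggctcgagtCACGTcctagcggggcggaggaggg
Plus-strand stretches lie at chrX:106186930-106186993 for Pgk1, chr7:46845736-46845794 for Ldha, chr4:101419469-101419514 for Ak4, chr19:41911737-41911781 for Pgam1, chr11:120949020-120949066 for Slc16a3 and chr11:54100826-54100870 for P4ha2. Minus-strand stretches lie at chr7:138909589-138909634 for Bnip3, chr14:45318611-45318655 for Ero1l, chr6:82774482-82774526 for Hk2, chr12:54204079-54204123 for Egln3 and chr7:126799356-126799400 for Aldoa. None of the 11 stretches overlapped an exon of the GENCODE M21 basic annotation. The core did not separate members by direction: on day 4 at 5 µM it was in 10 of the 14 higher members with a window, in 6 of the 7 lower members and in 7 of the 11 that were not called. A match is a run of letters and says nothing of binding in these cells.

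A pair of day 1 libraries stood apart. The 2 µM replicate 1 held 3388 CPM summed over 8 adipocyte markers, among them Fabp4, a fatty acid carrier, at 2529 CPM and Adipoq, an adipocyte hormone, at 158 CPM, against 7.58 to 53.9 CPM in the 28 libraries outside the pair. The 5 µM replicate 3 held 399.5 CPM of lung epithelium markers, led by the surfactant gene Sftpc at 199 CPM, and 327 CPM of leukocyte markers, where those 28 libraries held at most 0.941 and 1.26 CPM. Of the members, 12 had their highest level of all 30 libraries in the 2 µM replicate 1, and 8 were more than 2-fold above both other replicates there; the counts were 0 and 0 for the 5 µM replicate 3 and at most 4 and 1 in the 28 other libraries. Day 1 comparisons are therefore given with all libraries and without both. Endothelium markers stood apart in both of these libraries, at 25.9 CPM in the 2 µM replicate and 19.0 CPM in the 5 µM replicate against at most 3.57 CPM in the other 28, and erythroid markers in the latter, at 33.9 CPM against at most 14.4 CPM. Skeletal muscle markers, summed, ran from 1200 CPM on day 0 to 18130 CPM on day 4, so the cultures carried the labelled lineage.

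In untreated cells the members moved in both directions as differentiation proceeded. Between day 0 and day 1, 9 of 33 members rose and 12 fell (limma, adjusted p below 0.05), while 25.4% of all tested genes rose and 22.7% fell. From day 1 to day 2, 7 rose and 11 fell against a background of 12.8% and 9.42%. From day 2 to day 4, 5 rose and 8 fell against 11.7% and 14.1%, and over the whole course 11 rose and 13 fell against 30.3% and 29.5%. Of the 14 glycolytic enzymes, 5 rose and 8 fell from day 0 to day 4, with a median log2 change of -0.59, where the median over all tested genes was 0.0127.

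The member enzymes that fell over the control time course carry several successive steps of the pathway, but the members leave out the muscle forms. With Pfkm, total phosphofructokinase rose from 74.1 CPM per kb of exon on day 0 to 252 on day 4. Total enolase, with Eno3 and the Eno1 copy Eno1b, overlapped between these days (1535 and 1435). Phosphoglycerate mutase with Pgam2 still fell (445.8 to 334.4). Pgam1, phosphoglycerate mutase of non-muscle tissue, read 732, 857 and 783 CPM on day 0 and 259, 274 and 228 CPM on day 4, a log2 change of -1.64 ± 0.089 (SE; adjusted p = 2.4e-17). Slc2a1, the basal glucose transporter GLUT1, read 176, 169 and 158 CPM on day 0 and 50.9, 49.1 and 45 CPM on day 4 (log2 change -1.78 ± 0.11). In both genes the groups were far apart. Eno1 (enolase 1), Pfkl (liver-type phosphofructokinase), Hk1 (the housekeeping hexokinase), Pkm (pyruvate kinase) and Pgk1 (phosphoglycerate kinase) fell by 1.24, 1.16, 0.88, 0.87 and 0.81 log2 units. Ldha, the lactate-forming dehydrogenase subunit, fell by 0.50. Rising enzymes were Aldoa, the aldolase of muscle (769 to 1910 CPM, log2 change 1.31 ± 0.083), Gpi1, which isomerises glucose 6-phosphate (0.76), Hk2, the insulin-responsive hexokinase of muscle (0.64), and Gapdh (0.43). Aldoc, the brain aldolase, peaked at 9.46 ± 1.72 CPM on day 1 from 0.462 ± 0.694 CPM on day 0 and was at 1.47 ± 0.35 CPM on day 4.

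Hypoxia response members were as divided in untreated cells. The prolyl hydroxylase gene Egln3 read 43.3, 39.7 and 34.2 CPM on day 0, 30.5, 31.8 and 27.8 CPM on day 1, 102, 96.4 and 96.4 CPM on day 2 and 135, 129.8 and 126 CPM on day 4, so that from day 1 onward the days did not overlap and each was above the one before (day 4 against day 0, log2 change 1.72 ± 0.20). Ndrg1, a stress-induced gene of differentiation and hypoxia, was transient: it read 54.8, 53.9 and 51.9 CPM on day 0, 149.8, 142 and 168 CPM on day 1, 94, 100.4 and 101 CPM on day 2 and 64.2, 57.9 and 49.7 CPM on day 4. It rose to day 1 (adjusted p = 2.9e-15) and fell by 0.63 and 0.78 log2 units in the later steps. Pdk1, an inhibitory kinase of pyruvate dehydrogenase, the histone demethylase gene Kdm3a and the mitophagy receptor gene Bnip3 rose by 1.12, 1.16 and 1.22 on day 1. Vegfa (the angiogenic growth factor), Ak4 (a mitochondrial adenylate kinase) and Ero1l (an oxidase of the endoplasmic reticulum) fell by 1.14, 1.24 and 0.96 over the same day.

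**Figure D1:**
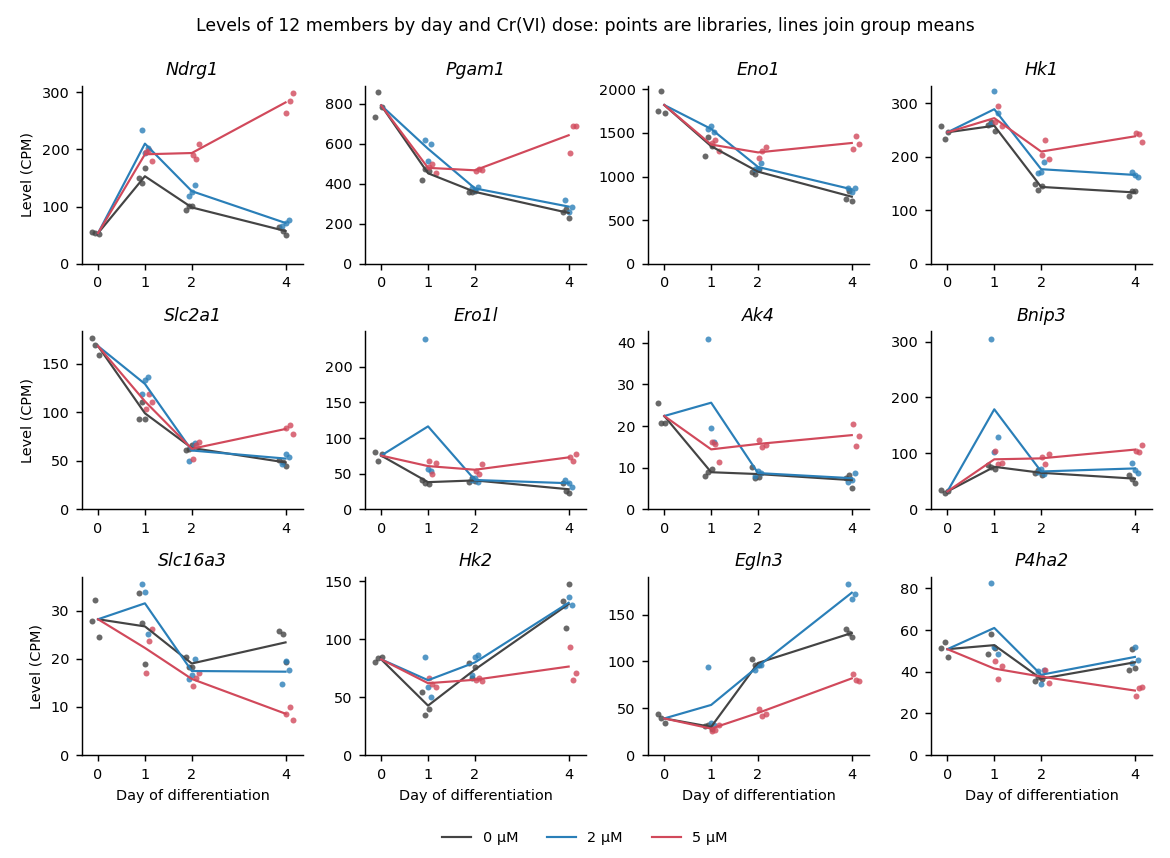
Levels in CPM (linear axes from 0) of 12 members by day and dose; points are the 3 libraries of each group and lines join group means, all starting from the shared untreated day 0 group. At 5 µM, Ndrg1 lies above the control on days 1, 2 and 4, and Slc16a3, Hk2, Egln3 and P4ha2 lie below it on day 4. Single high 2 µM points on day 1 (Ero1l, Ak4, Bnip3, Egln3, P4ha2) are the library with adipocyte transcripts.

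On day 1 at 2 µM, 14 of 33 members were higher than in untreated cells and none was lower, while 0.518% of all tested genes were higher and 1.48% lower. Without both odd libraries 7 members were higher and none lower, against 0.216% and 0.672% of tested genes. These 7 were Gpi1, Pfkl, Pgk1, Ldha, Bnip3, Higd1a and Ak4. The median log2 change of the 33 members was 0.38 with all libraries and 0.29 without the odd pair, where the median of all tested genes was -0.00371 and -0.00145. At an unadjusted p below 0.05, 23 members were higher and 0 lower in limma with all libraries, and edgeR and DESeq2 on recovered reads called 17 and 20 higher and 0 lower. Single libraries moved the limma count: it was 4 without 2 µM replicate 1, 9 without untreated replicate 1 and 8 without untreated replicate 3, and it was 0 when only the 2 groups compared entered the fit.

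Among the glycolytic enzymes called in both fits, Pgk1 read 991, 1117 and 1092 CPM in untreated cells and 1352, 1303 and 1418 CPM at 2 µM. The groups did not overlap, and replicate 1 lay between the other 2 µM libraries (log2 change 0.35 ± 0.078 with all libraries, adjusted p = 0.01, and 0.35 ± 0.082 without the pair, adjusted p = 0.024). Ldha read 737, 873 and 774 CPM in untreated cells and 1125, 946 and 1097 CPM at 2 µM, again without overlap (log2 change 0.36 ± 0.089 without the pair, adjusted p = 0.037). Pfkl read 142, 154 and 149 CPM against 234, 216 and 216 CPM, and the treated libraries lay close together and above every control (0.54, adjusted p = 0.025). For Gpi1 the change was 0.31 without the pair (adjusted p = 0.041).

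Of the mitochondrial members, Bnip3 and Ak4 were highest by far in replicate 1, and Higd1a was not. Bnip3 read 80.1, 76.1 and 72.2 CPM in untreated cells and 304, 103 and 129.8 CPM at 2 µM, so the first library was over 2-fold above the other treated libraries, which were themselves above all 3 controls. Its log2 change was 1.06 ± 0.20 with all libraries and 0.60 ± 0.13 without the pair (adjusted p = 0.013). Ak4 read 7.94, 9.06 and 9.79 CPM against 41, 19.6 and 16.3 CPM and changed by 1.31 and 0.93 in the same order (adjusted p = 0.024 without the pair). Higd1a, a protein of the inner mitochondrial membrane induced by hypoxia, read 34.2, 32.6 and 32.5 CPM against 61, 42.1 and 59 CPM, so that its replicates 1 and 3 were close, and changed by 0.58 without the pair.

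The largest day 1 differences rested on replicate 1. Pfkfb3, which makes the allosteric activator of phosphofructokinase, read 169, 8.83 and 4.71 CPM at 2 µM against 5.86, 3.86 and 8.87 CPM in untreated cells, and Adm, the vasodilator adrenomedullin, read 46.5, 0.434 and 0 CPM against 0.0386, 0 and 0.336 CPM. Neither was called, with log2 changes of 1.62 ± 0.61 and 1.87 ± 0.74. Without the pair, Pfkfb3 differed by 0.12 and Adm by 0.10. Ero1l read 238, 56.4 and 54 CPM against 41.5, 37 and 36.1 CPM and Vegfa 124, 53.7 and 53.8 CPM against 42.8, 41.1 and 44 CPM. In both, the other treated libraries still lay above every control, and the calls were lost without the pair (adjusted p = 0.11 and 0.28, log2 changes 0.52 and 0.33). The remaining members called only with all libraries were Hk2, Pdk1, Ndrg1, Aldoa and Pgam1, at 0.58, 0.51, 0.45, 0.34 and 0.34 before and 0.37, 0.39, 0.37, 0.27 and 0.29 after leaving the pair out. Adipocyte and endothelium markers moved with replicate 1; their part in these values was not tested beyond leaving that library out. Summed muscle markers also differed between the groups on day 1, at 2813, 3364 and 3366 CPM at 2 µM, 2189, 2389 and 1998 CPM at 5 µM and 4206, 3963 and 4296 CPM in untreated cells, with no overlap, and their part was not tested.

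**Figure D2:**
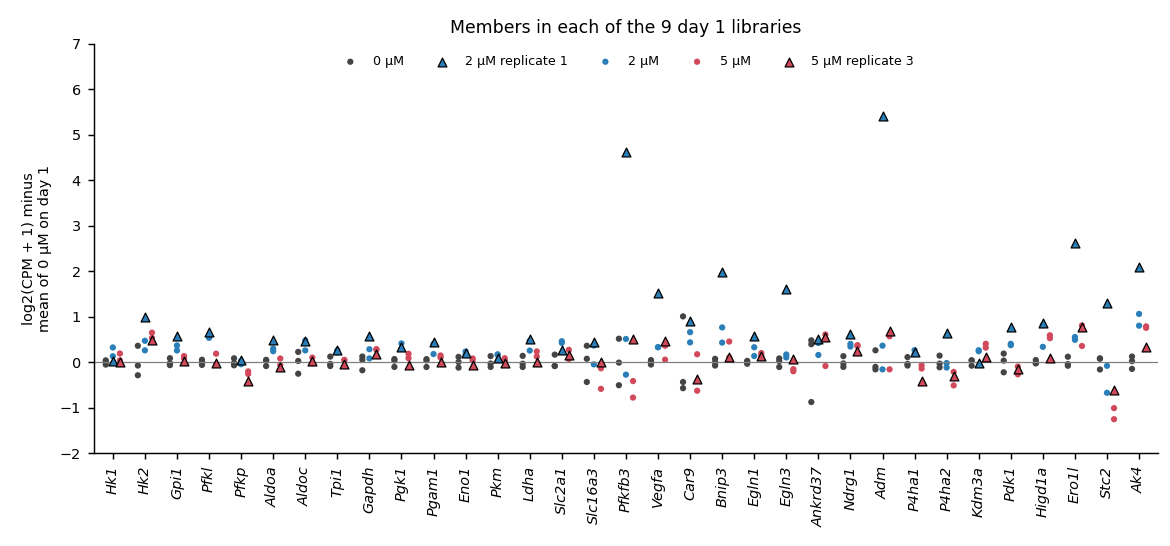
Each of the 33 members in each of the 9 day 1 libraries, as log2(CPM + 1) minus the mean of the 3 untreated day 1 libraries; triangles mark the 2 libraries with transcripts of other tissues. The 2 µM replicate 1 is far above all other libraries for Pfkfb3, Adm, Ero1l, Bnip3, Egln3 and Vegfa, whereas for Pgk1 it lies between the other 2 µM libraries.

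At 5 µM on day 1, 2 members were higher and 1 lower than in untreated cells, against a background of 4.29% and 9.41%. Hk2 read 66.3, 61 and 58.7 CPM against 54, 34.1 and 39.8 CPM (log2 change 0.55 ± 0.15, adjusted p = 0.011), and Ndrg1 read 196, 198 and 180.5 CPM against 149.8, 142 and 168 CPM (0.32 ± 0.094, adjusted p = 0.017). Pfkp, platelet-type phosphofructokinase, was lower by 0.29 and was not called without the pair. Without both odd libraries 7 members were higher and 1 lower (background 4.27% and 8.79%): Hk2, Gapdh, Ndrg1, Kdm3a, Higd1a, Ero1l and Ak4 against Stc2, the secreted stanniocalcin 2. Ero1l then read 67.5 and 49.1 CPM, above all 3 controls at 41.5, 37 and 36.1 CPM (0.58 ± 0.16, adjusted p = 0.0097). The 5 µM library left out, at 65.5 CPM, was also above these controls. With all libraries the SE of Ero1l takes in the 2 µM replicate 1, at 238.5 CPM. Without the pair, Ak4 read 16.1 and 15.7 CPM against 7.94, 9.06 and 9.79 CPM (0.77 ± 0.22, adjusted p = 0.015). With single day 1 libraries left out, the count of calls was between 0 (without untreated replicate 2) and 4.

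Between the doses on day 1, 12 members were lower at 5 µM than at 2 µM and none was higher, against 4.25% and 1.29% of tested genes (21 lower and 0 higher at an unadjusted p below 0.05, and 14 and 16 lower, 0 higher, by edgeR and DESeq2). No member was called when only the 2 groups compared entered the fit. The count was 4 without 2 µM replicate 1 and 7 without 5 µM replicate 2. Without the pair 2 were lower and none higher, against 2.67% and 0.456%. These were Pdk1, which then read 53.7 and 60.6 CPM at 5 µM and 86.1 and 84.3 CPM at 2 µM (-0.57 ± 0.13, adjusted p = 0.0097), and P4ha1, a procollagen prolyl hydroxylase subunit (-0.33 ± 0.089, adjusted p = 0.031). Summed over the 14 glycolytic enzymes, levels made up 0.966% ± 0.063 of all CPM in untreated cells on day 1, 1.17% ± 0.0517 at 2 µM and 1.01% ± 0.0208 at 5 µM (SD, n = 3). This sum leaves out the muscle forms Pfkm, Eno3 and Pgam2, and Eno1b, a near-identical copy of Eno1. The 2 µM libraries, at 1.23%, 1.13% and 1.14%, all lay above the untreated libraries, the highest of which reached 1.03%, and this holds without replicate 1. The 5 µM libraries outside the pair were at 0.990% and 1.03%.

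**Figure D3:**
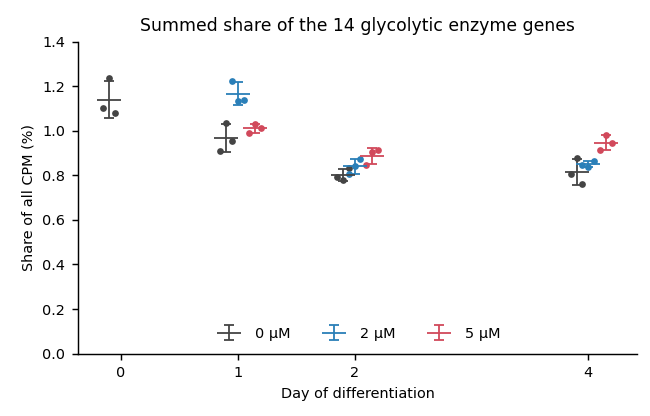
Share of all CPM taken by the 14 glycolytic enzyme genes, by day and dose; points are libraries, horizontal marks are means and bars are SD over 3 libraries. The share is 1.14% on day 0, highest among the day 1 groups at 2 µM (1.17%) and highest among the day 4 groups at 5 µM (0.946%). Not in the sum are Pfkm, Eno3 and Pgam2, lower at 5 µM on day 4, and Eno1b, higher there. The order of the groups may differ once they are included.

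On day 2 the 5 µM cultures differed from the control mostly upward among the members: 11 were higher and 2 lower than in untreated cells, against 10.2% and 13.4% of tested genes. Of the 14 glycolytic enzymes 7 were higher and none was lower. These leave out the muscle forms. With them, family totals in CPM per kb of exon were lower for phosphofructokinase (117 against 135.5) and enolase (1094 against 1234). Totals were higher for hexokinase (54.8 against 42.7), phosphoglycerate mutase (306.8 against 267.5) and lactate dehydrogenase (472 against 388). The groups did not overlap in any of these families, and they overlapped for aldolase. Pfkp read 204, 204 and 214 CPM at 5 µM and 121, 121 and 123 CPM in untreated cells (log2 change 0.77 ± 0.083, adjusted p = 6.4e-09), and Hk1 read 204, 230.4 and 195 CPM against 149, 137 and 145 CPM (0.54 ± 0.081, adjusted p = 3.3e-06). The groups did not overlap in either gene. Pfkl, Pgam1, Ldha, Pgk1 and Eno1 were higher by 0.50, 0.38, 0.30, 0.29 and 0.27. Of the other members, Ndrg1 read 189, 183 and 209 CPM against 94, 100.4 and 101 CPM (0.97 ± 0.094, adjusted p = 6.5e-10), and Ak4, Kdm3a and Ankrd37, an ankyrin-repeat gene induced by HIF-1, were higher by 0.83, 0.40 and 1.06. Ankrd37 was a weak call at 4.73 against 1.72 CPM and was not called by edgeR's quasi-likelihood test or without any low-level filter. The Kdm3a call was lost without untreated replicate 3 or 5 µM replicate 1, and the Ldha call without 5 µM replicate 3.

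Both lower members on day 2 lie outside the enzyme set. Egln3 read 49.2, 42.1 and 43.4 CPM at 5 µM against 102, 96.4 and 96.4 CPM in untreated cells, with no overlap between the groups (log2 change -1.12 ± 0.20, adjusted p = 4.6e-05). Stc2 read 3.19, 3.24 and 1.37 CPM against 5.75, 9.19 and 9.16 CPM (-1.35 ± 0.35, adjusted p = 0.0036). At 2 µM no member was called on day 2 in either direction by limma with all libraries, where 0.263% and 0.247% of tested genes were called. At an unadjusted p below 0.05, 4 were higher and 0 lower; edgeR on recovered reads called 0, and DESeq2 called 2, Ndrg1 and Hk1, whose limma values were 0.36 ± 0.094 and 0.30 ± 0.081. Other limma fits called 3 members higher (only the groups compared), 1 (without both odd day 1 libraries) and 1 (a pseudocount of 5). Against 2 µM, 6 members were higher at 5 µM (Ak4, Ndrg1, Pfkp, Kdm3a, Pgam1 and Hk1) and 2 lower (Egln3 and Stc2), against 4.64% and 8.13% of tested genes. This count of 8 became 5 without any one of the 2 µM replicates or without 5 µM replicate 1.

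By day 4 the 5 µM cultures differed from untreated cells in 22 of 33 members, 15 higher and 7 lower. The background was wide on that day, with 27.3% of all tested genes higher and 28.6% lower. The median log2 change was 0.22 over the members and -0.00946 over all tested genes. Among the 14 glycolytic enzymes 7 were higher and 4 lower. Higher enzymes were Pgam1, Eno1, Pfkp, Hk1, Ldha, Tpi1 (triose phosphate isomerase) and Pgk1, and lower ones were Hk2, Gapdh, Gpi1 and Aldoa.

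Among the enzymes, Pgam1 had the largest rise. It read 553, 686 and 686 CPM at 5 µM, 318, 258 and 281 CPM at 2 µM and 259, 274 and 228 CPM in untreated cells (5 against 0 µM, log2 change 1.33 ± 0.089, adjusted p = 1.6e-14). Every 5 µM library was far above the highest library of either other group. Eno1 read 1311, 1470 and 1374 CPM against 744, 839 and 724 CPM (0.85 ± 0.076, adjusted p = 2e-11). The table also lists Eno1b, a near-identical copy of Eno1, which read 999, 1099 and 982 CPM at 5 µM. How reads were divided between the copies is uncertain. Eno1b itself changed by 1.06 ± 0.11, and Eno1 made up between 55.6% and 60.9% of the pair in every group mean. Hk1 read 244, 243 and 227 CPM against 127, 137 and 136 CPM (0.83 ± 0.081, adjusted p = 1.1e-10), and Pfkp read 128, 129 and 126 CPM against 63.1, 78 and 73 CPM (0.84 ± 0.083). Ldha read 1247, 1372 and 1342 CPM against 879, 1011 and 821 CPM (0.55 ± 0.086, adjusted p = 1.5e-06). Tpi1 and Pgk1 were higher by 0.28 and 0.23, and the Pgk1 call was lost on leaving out 5 µM replicate 2 or 3. Gapdh, Pgk1, Pgam1 and Ldha have processed copies elsewhere in the genome, and the counting rule for shared reads is not given in the sources used here.

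The 4 lower enzymes on day 4 were among the 5 that rose in untreated cells from day 0 to day 4. Both comparisons use the same untreated day 4 libraries, so this match is not independent. Hk2 read 93.1, 65.2 and 70.8 CPM at 5 µM against 133, 110 and 148 CPM (log2 change -0.77 ± 0.15, adjusted p = 5.2e-05). Gapdh, Gpi1 and Aldoa were lower by 0.32, 0.24 and 0.22. The Aldoa call was lost without untreated replicate 2 or 5 µM replicate 3, and the Gpi1 call without untreated replicate 2. Pkm, Pfkl and Aldoc were not called, at 0.17 ± 0.081, 0.22 ± 0.11 and -0.14 ± 0.28.

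The 2 transporters went in opposite directions on day 4. Slc2a1 read 83.9, 86.8 and 77.5 CPM at 5 µM against 50.9, 49.1 and 45 CPM (log2 change 0.76 ± 0.11, adjusted p = 5e-07). Slc16a3, the lactate exporter MCT4 of glycolytic muscle, read 8.52, 9.9 and 7.36 CPM at 5 µM, 14.8, 19.5 and 17.7 CPM at 2 µM and 25.7, 25.2 and 19.4 CPM in untreated cells (-1.35 ± 0.19 at 5 µM, adjusted p = 2.9e-07). The 5 µM libraries were the lowest, without overlap with either other group, and the 2 µM and untreated libraries overlapped. Slc16a1, the transporter MCT1 and no member of the set, read 277, 252 and 276 CPM at 5 µM, 144, 140 and 119 CPM at 2 µM and 73.5, 80.7 and 86.8 CPM in untreated cells, higher at both doses (1.73 ± 0.079 and 0.73 ± 0.079, adjusted p = 8.3e-19 and 5.1e-08).

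Of the 15 hypoxia response members without a part in glycolysis or its regulation, 7 were higher and 2 lower at 5 µM on day 4 (27.3% and 28.6% of all tested genes). Ndrg1 showed the largest change of any member: 264, 284 and 299 CPM at 5 µM against 64.2, 57.9 and 49.7 CPM in untreated cells, a log2 change of 2.29 ± 0.094 (adjusted p = 4.1e-20). Its 5 µM libraries on day 4 all lay above those of day 1, whereas the untreated level had returned to that of day 0. Ero1l read 73.1, 67.8 and 77.8 CPM against 36.6, 25.6 and 22.5 CPM (1.36 ± 0.28, adjusted p = 9.2e-05). Among the mitochondrial members, Ak4 read 20.6, 15.3 and 17.7 CPM against 7.49, 8.36 and 5.25 CPM (1.24 ± 0.23), and Bnip3 read 104, 102 and 114 CPM against 62.1, 55.2 and 47.5 CPM (0.95 ± 0.20). Neither gene's groups overlapped. Higd1a was higher by 0.46, a call lost without untreated replicate 3. Kdm3a read 93.1, 88.2 and 87.5 CPM against 54.4, 55.6 and 49.6 CPM (0.74 ± 0.12, adjusted p = 1.5e-06).

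The oxygen-sensing hydroxylases split. Egln1 (PHD2) was higher, at 77.7, 89.1 and 81.1 CPM against 55, 67.7 and 50.1 CPM (log2 change 0.52 ± 0.12, adjusted p = 0.00036), and Egln3 (PHD3) was lower, at 86.5, 80.1 and 78.9 CPM against 135, 129.8 and 126 CPM (-0.67 ± 0.20, adjusted p = 0.0046). Of the procollagen hydroxylases, P4ha2 read 28.2, 32.2 and 32.5 CPM against 40.9, 51 and 41.8 CPM (-0.51 ± 0.14, adjusted p = 0.0029), while P4ha1 was not called (-0.14 ± 0.08). None of the 3 secreted signals was called: Vegfa differed by 0.20 ± 0.18, Stc2 by -0.47 ± 0.35 and Adm by -0.18 ± 0.74. Car9, the membrane carbonic anhydrase often used as a marker of hypoxia, was listed at 0 in all 3 libraries at 5 µM on day 4 and read 0.402, 1.47 and 0.464 CPM in untreated cells, under 3 CPM in all 30 libraries. Pdk1 and Pfkfb3 were not called (-0.11 ± 0.11 and -0.44 ± 0.61), nor was Ankrd37 (0.74 ± 0.37). For Pdk1 and Pfkfb3 every 5 µM library still lay below every untreated library. Pfkfb3 read 3.11, 3.57 and 2.8 CPM against 3.87, 4.81 and 5.29 CPM. The SEs of Pfkfb3 and Adm take in the odd 2 µM library of day 1, at 169 and 46.5 CPM.

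**Figure D4:**
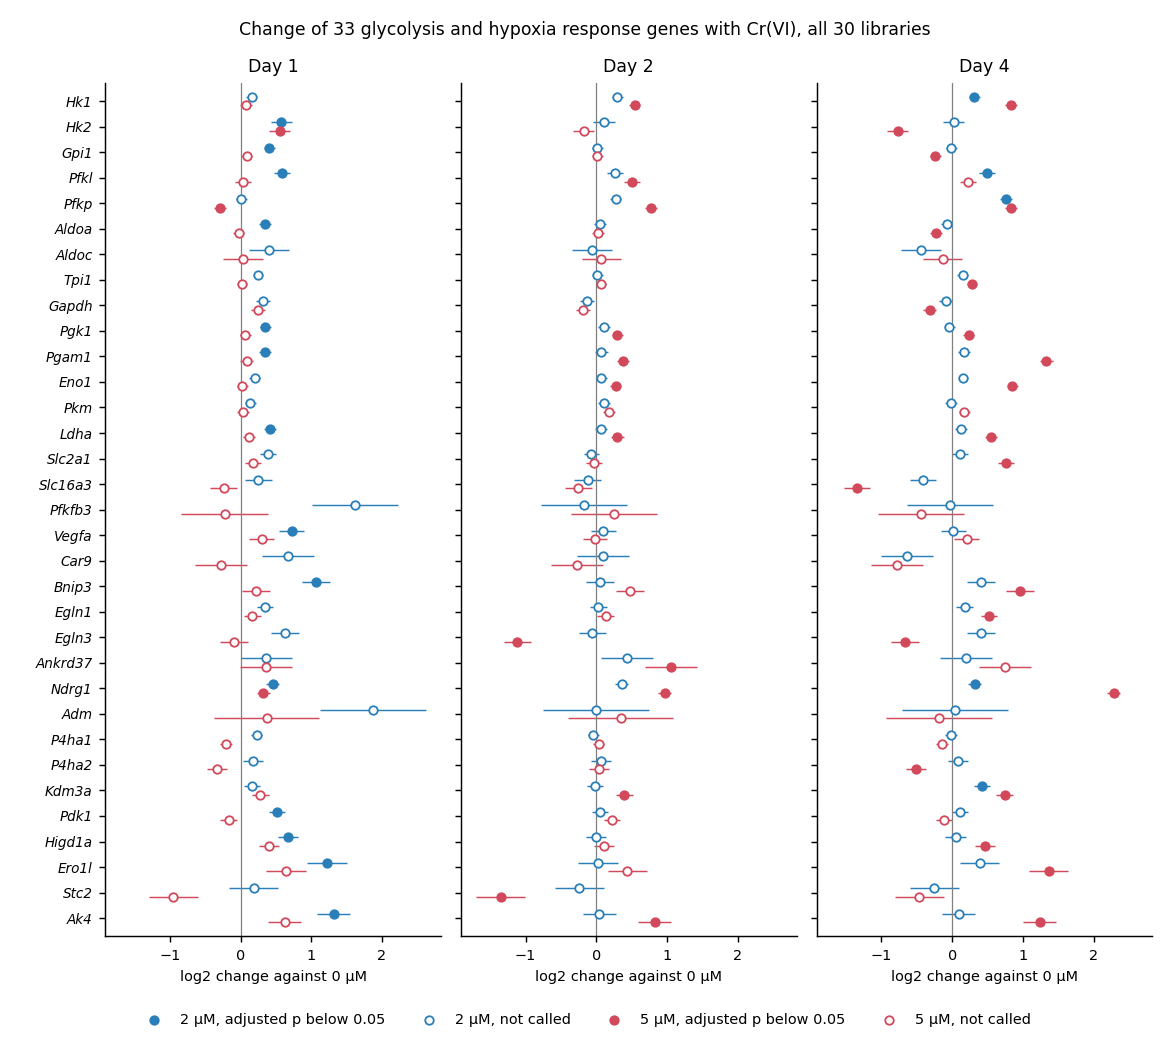
Log2 change of each of the 33 members against untreated cells of the same day, from limma with all 30 libraries; points are estimates, bars are SE, blue is 2 µM, red is 5 µM and filled points have an adjusted p below 0.05. At 2 µM 14 points are filled on day 1, none on day 2 and 5 on day 4; at 5 µM 3 are filled on day 1, 13 on day 2 and 22 on day 4, to both sides of 0.

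At 2 µM on day 4, 5 members were higher and none lower, against 5.11% and 3.74% of tested genes. Pfkp read 118, 128 and 116 CPM at 2 µM and 63.1, 78 and 73 CPM in untreated cells (log2 change 0.76 ± 0.083, adjusted p = 6.7e-08), a change close to that at 5 µM (0.84 ± 0.083). The count was 3 without untreated replicate 3. At an unadjusted p below 0.05, 7 were higher and 1 lower, or 10 and 1 without both odd day 1 libraries. Both edgeR and DESeq2 called 5 higher and 0 lower. Pfkl, Kdm3a, Ndrg1 and Hk1 were higher by 0.49, 0.42, 0.32 and 0.32. Between the doses on day 4, 13 members were higher and 6 lower at 5 µM than at 2 µM, against 22.8% and 24.8% of tested genes. Ndrg1 differed by 1.97 ± 0.094, Pgam1 by 1.16 ± 0.089 and Ak4 by 1.15 ± 0.23. Egln3 read 182, 166 and 172 CPM at 2 µM, above every untreated library. Its log2 difference of 5 from 2 µM was -1.07 ± 0.20, while that between 2 and 0 µM (0.41 ± 0.20) was not called. The SE of Egln3 is shared by all groups. It takes in the odd 2 µM library of day 1, at 94.3 CPM against 33.9 and 32.3 CPM in replicates 2 and 3. Pfkp was not called between doses, with a difference of 0.079 ± 0.083. Both doses were compared with the same untreated libraries.

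The change of the 5 µM effect between day 2 and day 4 was tested directly. It differed for 7 members, 4 upward and 3 downward, where 12.5% and 11.2% of tested genes did. The difference from untreated cells became more positive for Ndrg1 (1.32 ± 0.13, adjusted p = 3.1e-09), Pgam1 (0.95 ± 0.13, adjusted p = 7.7e-07), Slc2a1 (0.79 ± 0.16, adjusted p = 0.00028) and Eno1 (0.58 ± 0.11, adjusted p = 0.00014). It became more negative for Slc16a3 (-1.09 ± 0.27, adjusted p = 0.0028), Hk2 (-0.59 ± 0.21, adjusted p = 0.04) and P4ha2 (-0.54 ± 0.20, adjusted p = 0.046). The Hk2 and P4ha2 calls were lost without most single libraries, and 11 members were called when both odd day 1 libraries were left out of the fit. In Slc2a1 the day 2 groups overlapped, at 51.6, 66.2 and 69.2 CPM and 61.3, 61.7 and 66.6 CPM. For 2 µM no member's effect changed between these days by limma, where 0.201% and 0.0618% of tested genes did. At an unadjusted p below 0.05, 2 were higher and 0 lower; edgeR called 0 and DESeq2 1 member, Pfkp (0.48 ± 0.12 in limma).

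The isozymes of the pathway were compared per kilobase of exon (GENCODE M21 lengths), which allows levels of different genes to be set beside each other. In untreated cells Pfkm took 17.4% ± 4.05 of phosphofructokinase transcripts on day 0 and 87.3% ± 0.951 on day 4 (SD, n = 3). On day 4 its share was 77.1%, 76.6% and 77.6% in the 2 µM libraries and 58.6%, 55.1% and 57% in the 5 µM libraries, so the 3 groups did not overlap. Summed over Pfkl, Pfkp and Pfkm, the level on day 4 was 252 ± 12.7 CPM per kb in untreated cells, 217 ± 3.17 at 2 µM and 110.3 ± 3.44 at 5 µM: the rise of Pfkp was smaller than the fall of Pfkm (log2 change -1.80 ± 0.091, adjusted p = 1e-17).

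On day 4 the muscle share of enolase differed most between 5 µM and untreated cells among the 4 families compared (hexokinase, phosphofructokinase, phosphoglycerate mutase and enolase). With Eno1 and Eno1b counted together, Eno3 made up 19.6% ± 1.09 of enolase transcripts on day 0, and 65.1%, 65.1% and 65% in the untreated libraries of day 4. At 5 µM on day 4 it made up 22.1%, 19.2% and 20.1%, near the day 0 share, and at 2 µM 56.2% ± 0.593. Eno3 itself read 405, 377 and 365 CPM at 5 µM against 1448, 1662 and 1275 CPM (log2 change -1.93 ± 0.092, adjusted p = 2.6e-18), and was already lower at 5 µM on day 1 (-0.69, and -0.60 without the pair) and day 2 (-1.47). At 2 µM it was lower on days 2 and 4 (-0.45 and -0.34), whereas on day 1 the call with all libraries (-0.39, adjusted p = 0.016) was lost without the pair (-0.30, adjusted p = 0.11). Total enolase on day 4 was 1171, 1253 and 1161 CPM per kb at 5 µM and 1421, 1630 and 1253 CPM per kb in untreated cells, groups that met at their edges.

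Pgam2 took 57.1% ± 1.41 of phosphoglycerate mutase transcripts in untreated cells on day 4, 50.2% ± 2.3 at 2 µM and 26.6% ± 4.48 at 5 µM. Its own change at 5 µM was -0.55 ± 0.24 on day 4 (adjusted p = 0.049), much smaller than that of Pgam1, and the family total was higher at 5 µM, at 456, 514 and 504 against 339, 373 and 291 CPM per kb. Hk2 took 45.6% ± 4.06 of Hk1 plus Hk2 in untreated cells on day 4 and 21.6% ± 2.99 at 5 µM, where it had been 22.6% ± 1.31 on day 0. Ldhb, the heart-type lactate dehydrogenase subunit, stayed a minor part of its family, at 2.71% ± 0.562 in untreated cells and 1.06% ± 0.236 at 5 µM on day 4, and was lower by 0.77 log2 units (adjusted p = 0.038). Summed muscle markers on day 4 were 6354 to 7240 CPM at 5 µM, 13630 to 15050 CPM at 2 µM and 16680 to 18130 CPM in untreated cells. They moved with the isozyme shares, and their part in them was not tested; in bulk RNA fewer differentiated cells and less of a transcript per cell cannot be told apart.

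**Figure D5:**
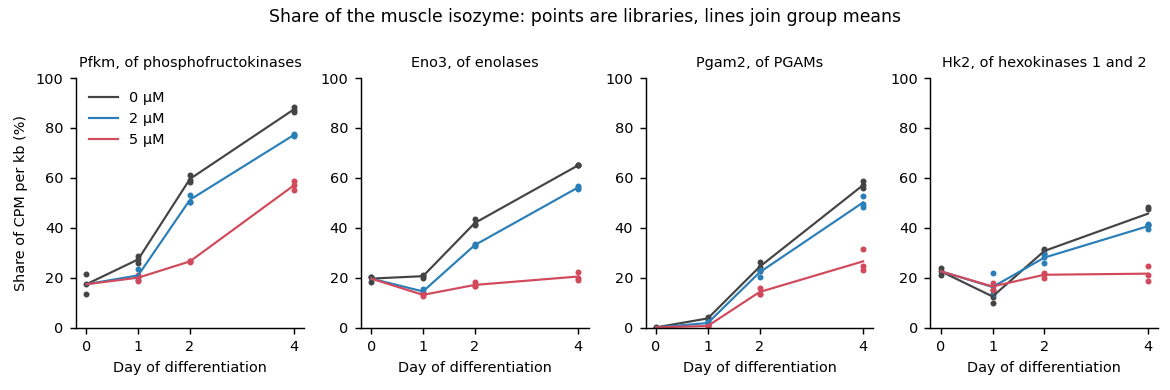
Share of the muscle isozyme in its enzyme family, in percent of CPM per kb of exon, by day and dose; points are libraries and lines join group means from the shared day 0 group. On day 4 the mean share of Pfkm is 87.3% in untreated cells and 56.9% at 5 µM, of Eno3 65.1% and 20.5%, of Pgam2 57.1% and 26.6%, and of Hk2 45.6% and 21.6%.

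Genes that encode or regulate the hypoxia-inducible factor were then counted on day 4 at 5 µM: of 10 tested, 5 were higher and 3 lower, where 27.3% and 28.6% of all tested genes were. Hif1a, the oxygen-regulated subunit, read 171, 161 and 150 CPM against 136, 106 and 126 CPM in untreated cells (log2 change 0.39 ± 0.10, adjusted p = 0.0016). Its mean in untreated cells went from 241 CPM on day 0 to 288 CPM on day 1, then fell to 200 CPM on day 2 and 123 CPM on day 4. Hif1a did not pass on day 1 (-0.14 ± 0.10, and -0.087 without the pair) or day 2 (0.069 ± 0.10). Cited2, which competes with HIF-1 for its coactivators, read 203, 232 and 220.2 CPM at 5 µM, 166, 152 and 154 CPM at 2 µM and 91.5, 114 and 98.9 CPM in untreated cells (1.10 ± 0.092 and 0.63 ± 0.092). It was also higher at 5 µM on day 1 (0.42, and 0.48 without the pair) and at both doses on day 2 (1.10 and 0.51). The coactivators Ep300 and Crebbp were higher on day 4 by 0.87 and 0.93 and Egln2 (PHD1) by 0.37. Hif1an, the asparaginyl hydroxylase that blocks HIF-1 from its coactivators, was lower, at 115, 91.3 and 97 CPM against 195, 146 and 176 CPM (-0.76 ± 0.11, adjusted p = 3.2e-07), as were Arnt, the constant partner of HIF-1α (-0.28), and its homologue Arnt2 (-1.28). On day 1 Arnt2 had been higher at 5 µM, at 9.77, 5.03 and 14.3 CPM against 2.89, 3.44 and 2.44 CPM (1.35 ± 0.28, adjusted p = 0.00082, and 1.05 without the pair, adjusted p = 0.017). Vhl, which recruits the ubiquitin ligase, and Epas1 (HIF-2α) were not called (0.24 ± 0.15 and 0.57 ± 0.74), and Hif3a did not reach the level filter.

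A wider list of 34 hypoxia targets outside the members gave no uniform direction. Of 32 tested on day 4 at 5 µM, 11 were higher (34.4%) and 7 lower (21.9%), near the shares of all tested genes (27.3% and 28.6%), with a median log2 change of 0.27. The 4 largest changes were Gys1, muscle glycogen synthase (30 against 201 CPM, -2.71), Adora2b, an adenosine receptor (44.5 against 7.84 CPM, 2.37), Ppfia4 (-2.03) and the chemokine gene Cxcl12 (1.67). On day 1 at 2 µM their median was 0.33 with all libraries and 0.14 without the pair. Of 12 genes that decide the fate of pyruvate, 3 were higher (25.0%) and 2 lower (16.7%) on day 4 at 5 µM, shares no higher than those of all tested genes: the activating phosphatase Pdp1 (1.04 ± 0.13), the pyruvate dehydrogenase subunit Pdha1 (0.65 ± 0.083) and the inhibitory kinase Pdk4 (0.59 ± 0.20) rose, and the kinase Pdk3 (-0.83 ± 0.19) was among those that fell. Among 15 tested further genes of glycolysis 3 were higher (20.0%) and 5 lower (33.3%), again near the background; beyond the isozymes and Slc16a1 given above, Slc2a3, the glucose transporter GLUT3, read 2.37 against 0.361 CPM (1.29).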

How the data were processed

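RNA was extracted with TRIzol and sequenced as TruSeq libraries, per the labels' protocols. The authors deposited 1 table of gene-level signal, headed CPM per the file headers. Its columns summed to between 892246 and 1079916, so the values had been scaled further. The aligner, the counter, the build and that scaling were not given in the sources used here. Every value was a whole multiple of what 1 read was worth in its library (100% of values within 0.001 read), so whole reads were recovered for the count tests. The main test was limma 3.58.1 in R 4.3.3 on log2(CPM + 1), with a trend, over all 30 libraries (20 residual degrees of freedom) and genes at 1 CPM or more in at least 3 libraries; fold changes are on that scale, which understates those of low genes. The spread of each gene was shared by all groups, so its value in an odd day 1 library also entered its SE on other days. P-values were adjusted over all 12946 genes by Benjamini-Hochberg, and called means an adjusted p below 0.05. Errors are SE for changes and SD for levels. Alternatives were edgeR 4.0.16 and DESeq2 1.42.0 on recovered reads, other filters, pseudocounts, scalings and sample sets, and a replicate block. The fits were also run on simulated counts with the same dispersion for every gene. That simulation held no library with transcripts of other tissues, so it does not cover the odd day 1 libraries.

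The 33 members and the other lists were chosen with earlier results of these data known. All members are reported. Of other lists, the oxygen-sensing genes, Pfkm, Eno3, Pgam2, Ldhb and up to 4 called genes with the largest change were named.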

Additional observations from a re-analysis of the deposited data

Results flagged for a closer look

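For 7 members the difference between 5 µM and untreated cells itself differed between day 2 and day 4 (limma, 3 libraries a group). On the log2 scale the change of the difference was 1.32 for Ndrg1 (adjusted p = 3.1e-09), 0.95 for Pgam1 (7.7e-07), 0.79 for Slc2a1 (0.00028), 0.58 for Eno1 (0.00014), -1.09 for Slc16a3 (0.0028), -0.59 for Hk2 (0.04) and -0.54 for P4ha2 (0.046). The Hk2 and P4ha2 calls were lost when most single libraries were left out, without a low-level filter, and after scaling each library to the same total.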

How the results depend on the processing

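Depth was 18462092 to 26947109 reads, and 3 libraries a group limited the power. Of 179 member calls, 129 were kept in every setting with no single library left out and 122 with each single library left out; no direction reversed. Without both odd day 1 libraries the members called were 8 (5 against 0 µM, day 1, from 3), 7 (2 against 0 µM, day 1, from 14), 2 (5 against 2 µM, day 1, from 12), 1 (2 against 0 µM, day 2, from 0), 11 (5 µM change from day 2 to day 4, from 7) and 1 (2 µM change, from 0). With only the groups compared they were 1, 0 and 0 in the same 3 day 1 comparisons, 3 for 2 µM on day 2 and 2 for 2 µM on day 4 (from 5). For 2 µM on day 2, a pseudocount of 5 gave 1 and DESeq2 gave 2. For the 2 µM change, no filter, scaling to equal totals and DESeq2 each gave 1. With each replicate left out, counts ran from 0 to 4 (5 against 0 µM, day 1), 4 to 17 (2 against 0 µM, day 1), 4 to 15 (5 against 2 µM, day 1), 5 to 6 (5 against 2 µM, day 2), 3 to 5 (2 against 0 µM, day 4) and 0 to 1 (2 µM change). The cause was not tested. Scaling to equal totals shifted the median of all genes by -0.103 for control day 4 against day 0. Replicate numbers did not pair the samples (135 same-number pairs, r from -0.225 to 0.128; 10 of 30 libraries closest to their own number). With the replicate block, 489 member values kept their side of the threshold, 3 gained a call and 3 lost one, P4ha2 in the 5 µM change among them (-0.54, adjusted p = 0.05).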
